A study of Mus musculus with 17 samples.

Results

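Beta cells from mice at postnatal day 12 (P12) were compared with beta cells from adult control mice. Cells were taken as beta cells where the deposited signal of Ins2, an insulin gene, reached 3000 UMIs per 100000, was at least 3 times that of glucagon (Gcg), somatostatin (Sst) and pancreatic polypeptide (Ppy) each, and the acinar trypsinogen Prss2 stayed below 1500. The rule kept 127 P12 cells (62 of 78 in library P12 1 and 65 of 74 in P12 2) and 359 adult cells (209 of 295, 129 of 270 and 21 of 22 in Control 1 to 3). These 486 cells are part of 910 that met the rule among 2999 cells in the 17 libraries of the series. The study profiled single cells of the mouse pancreas after streptozotocin and in young mice by mSTRT-seq, which counts molecules by unique molecular identifiers (UMIs). Both groups here carried Ngn3-Cre and Rosa-RFP, so that Cre driven by the promoter of Ngn3, a gene of endocrine progenitors, switches on a red reporter in their descendants, and RFP-positive cells were sorted. Control mice were adult males injected with citrate buffer at 2 months of age, with no age at collection in the labels. P12 mice have no treatment and no sex in the labels, and no label states how many animals each library holds, so p-values measure the spread between libraries, which may be technical.

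Beta cells of newborn rodents contain insulin but release it poorly in response to glucose, and they divide far more often than adult cells. Over the weeks around weaning they gain regulated secretion and switch on maturity genes such as Ucn3, a peptide that acts on neighbouring delta cells. Insulin is made as a precursor, cut and packed in dense granules, and released when glucose metabolism closes ATP-sensitive potassium channels and calcium enters.

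The summed beta cells held 3554956 and 3708839 UMIs in the P12 libraries and 13411734, 7563180 and 1373185 in the Control libraries, with medians of 55441 to 69993 UMIs per cell. Levels are given in CPM, UMIs of a gene per 1000000 UMIs of the library, scaled by trimmed means (TMM) unless called unscaled, and fold changes are fitted log2 values of P12 over Control ± SE from edgeR's quasi-likelihood test with Benjamini-Hochberg adjustment. Ins1, the other mouse insulin gene, and Pdx1 and Nkx6-1 had UMIs in at least 90% of beta cells of every library, whereas Mafa, a maturity factor of adult beta cells, had no UMI in any library and was not measured here. The pan-endothelial gene Cdh5 was at 0 UMIs in all 5 libraries. Of the other endothelial and stromal markers, Col3a1 was also at 0, Pecam1 had at most 6 UMIs in a library and Col1a1 at most 4. The Y-linked genes Ddx3y, Eif2s3y, Kdm5d and Uty summed to 228 and 196 CPM, unscaled, at P12 and to 164, 232 and 199 in the Control libraries, and Xist had 2 UMIs in all, in Control 2. Acinar markers other than Prss2 summed to 394 and 1602 CPM, unscaled, at P12 and to 2719, 6617 and 14919 in the Control libraries, so RNA of exocrine cells was lower at P12. The raw read names give a run for each Control library, different for all 3, and none for P12, so age cannot be told apart from any difference between runs.

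The call counts were uneven in direction. Of 11317 genes tested, 117 were higher and 182 lower at P12 at an adjusted p under 0.05. These are 1.03% and 1.61% of all genes tested, and 2.64% in either direction. The counts of called members of each gene list below stand beside this share of 2.64%. The lists were written with earlier results of these data known, and those marked below were put together after values had been seen. By single libraries, 70 genes passed without P12 1, 85 without P12 2 and 128 without Control 2, against 294 and 341 without Control 1 and Control 3. Leaving out a P12 library leaves a lone sample, which is assumed to vary like the Control libraries. A stricter cell rule (a hormone ratio of 10 and Prss2 below 150) leaves Control 2 with 9 cells and Control 3 with 1. Under it 110 genes passed, and Ttr, Rbp4, Ly6e and Dnmt3a lost their call. Nrep lost its call in a fit of all 17 libraries. Of 97 called genes chosen for description, 25 were called whichever library was left out, among them Rgs2, Ttr, Gc, Pdyn, Hspa1a, Ly6e, Nnat, Nrep, Rbp4, Dnmt3a and Ffar4. Without P12 1 or P12 2, 60 of the 97 lost their call in each case (Prlr without P12 2, Resp18, Scg2, Chac1, Nupr1, Atf5, B2m and Tet1 without P12 1, and Wnt4, Ero1lb, Mthfd2, Pdx1 and Arhgap36 without either), and 17, 40 and 7 did so without Control 1, 2 and 3. In all, 19 genes were called in the same direction under all 14 alternatives planned, among them the higher Ffar4 and Nnat and the lower Rgs2, Pdyn, Hspa1a and Gc described below.

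**Figure D1:**
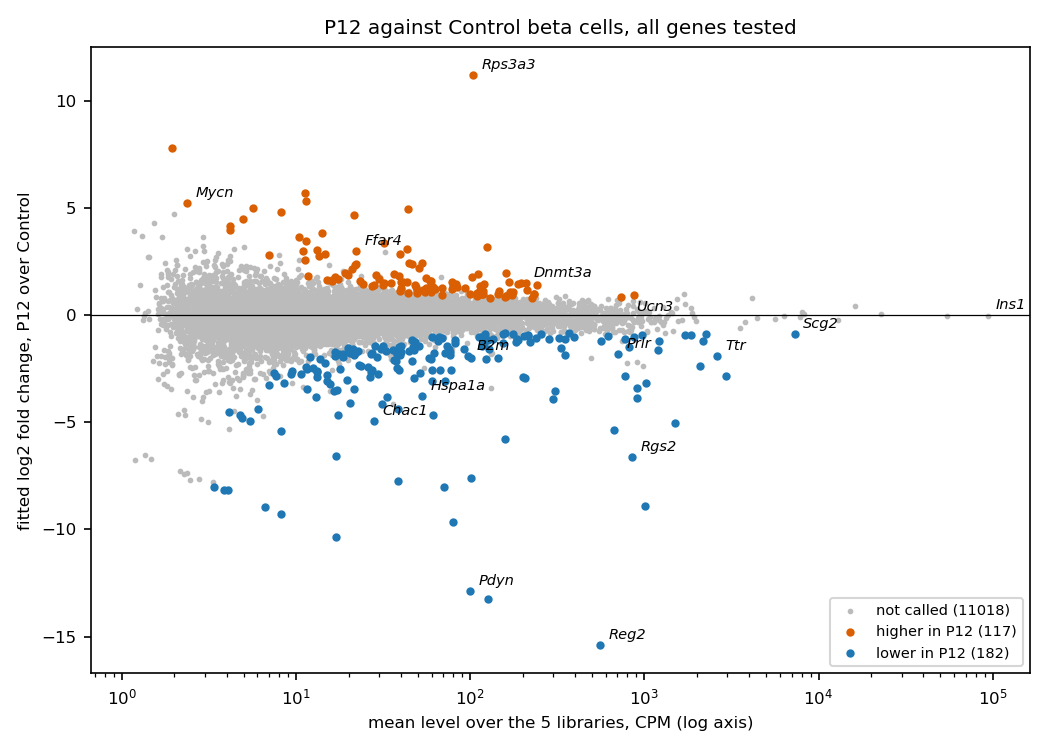
Fitted log2 fold change of P12 over Control beta cells (y axis) against the mean level over the 5 libraries in CPM (x axis, log scale). Each dot is 1 of 11317 genes; orange marks the 117 genes called higher and blue the 182 called lower, and Ins1 and Ucn3 lie near the zero line.

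For the main secreted products no difference between P12 and adult cells passed the test. Ins1 stood at 95580 and 89042 CPM at P12 and at 94565, 91299 and 97269 in the Control libraries. Iapp, the amyloid peptide released with insulin, stood at 56297 and 52208 against 54589, 53003 and 58460. The groups overlapped for both genes, with log2 fold changes of -0.03 ± 0.14 and -0.02 ± 0.15 (edgeR adjusted p 0.958 and 0.963). Ins2, which the cell rule used, is given as a level only: 106575 and 98569 at P12 and 107208, 109428 and 114253 in adults. Ucn3 stood at 875 and 673 at P12 and at 975, 808 and 707 in adults, a change of -0.09 ± 0.21 (adjusted p 0.885). The single P3 library had 175 and the single P21 library 945, so the P12 values of Ucn3 overlapped the adult ones and lay above P3.

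None of the genes listed for glucose sensing, excitability or exocytosis passed the test. For glucose sensing and metabolic coupling, 0 of 24 tested members were called by edgeR (1 at an unadjusted p under 0.05, 0 by DESeq2), with a median of -0.10 beside 0.00 over all genes. Slc2a2, the glucose transporter, stood at 498 and 495 against 649, 552 and 492. G6pc2, a phosphatase that removes phosphate from glucose-6-phosphate, stood at 3610 and 3003 against 4824, 3412 and 4179. Their log2 fold changes were -0.18 ± 0.19 and -0.32 ± 0.20. Among channels and excitability genes 0 of 20 were called (3 at an unadjusted p under 0.05, 2 by DESeq2, both lower), and Abcc8, the sulfonylurea receptor subunit of the potassium channel, stood at 319 and 317 against 470, 517 and 454 (-0.59 ± 0.19, adjusted p 0.131, and 0.0184 by DESeq2). Kcnj11, its pore subunit, had too few UMIs to be tested. For the exocytosis machinery 0 of 25 were called (3 at an unadjusted p under 0.05, 2 by DESeq2). The calcium sensor Syt4 stood at 98.5 and 77.2 against 117, 183 and 228 (-0.99 ± 0.28, adjusted p 0.0879), with both P12 libraries below all Control libraries. Syt4 passed with DESeq2 (adjusted p 0.015), with no filter on low counts (0.00175) and without Control 1 (-1.23, adjusted p 0.0145).

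A subset of maturity genes was below the adult level. In the list of beta-cell identity and maturity, 5 of 27 tested members were lower at P12: Prlr, Wnt4, Ero1lb, Prss53 and Nupr1. The list's median was -0.12, and both P12 libraries lay below all Control libraries for 9 members, against 17.6% of all genes. Prlr, the prolactin receptor (mm10 chr15:10177238-10349180, plus strand), stood at 342 and 219 at P12 and at 904, 1300 and 754 in adults. It was 3.50-fold lower (-1.81 ± 0.27, adjusted p 0.00334), and the P3 and P21 libraries had 195 and 631. Wnt4, a Wnt ligand of mature beta cells, stood at 34.0 and 29.7 against 92.0, 141 and 85.4 (-1.74 ± 0.27, adjusted p 0.00451). Ero1lb, the oxidase that forms disulfide bonds in the endoplasmic reticulum, stood at 689 and 651 against 1493, 1688 and 1532 (-1.22 ± 0.19, adjusted p 0.00398). In all of these genes the P12 libraries lay below every Control library. The count of lower members was 2 and 1 without P12 1 and P12 2, and 4 to 6 without a Control library.

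Rgs2, a regulator that limits signalling through G proteins (chr1:143999338-144004161, minus strand), was also lower. Rgs2 stood at 8.50 and 19.8 CPM at P12 and at 1807, 1481 and 930 in adults. It was 97.8-fold lower at P12 (-6.61 ± 0.43, adjusted p 5.87e-06), with P3 at 7.21 and P21 at 464. The young libraries thus ordered as P3 and P12 near 0, P21 between, and the adult libraries highest. After each cell was thinned to 30540 UMIs, Rgs2 had a UMI in 14.8% ± 2.99 of P12 cells (SD, n = 2 libraries) and in 99.7% ± 0.481 of adult cells (n = 3), with unthinned shares of 18.1% and 100%. An exact two-sided permutation test gave p = 0.1, the smallest that 2 against 3 libraries allow. Median counts per thinned cell were 0 and 0 at P12 and 41.5, 35 and 25 in adults. In glucagon cells of the same groups, 2 of 8 P12 cells and 38 of 42 adult cells of that depth had an Rgs2 UMI.

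**Figure D2:**
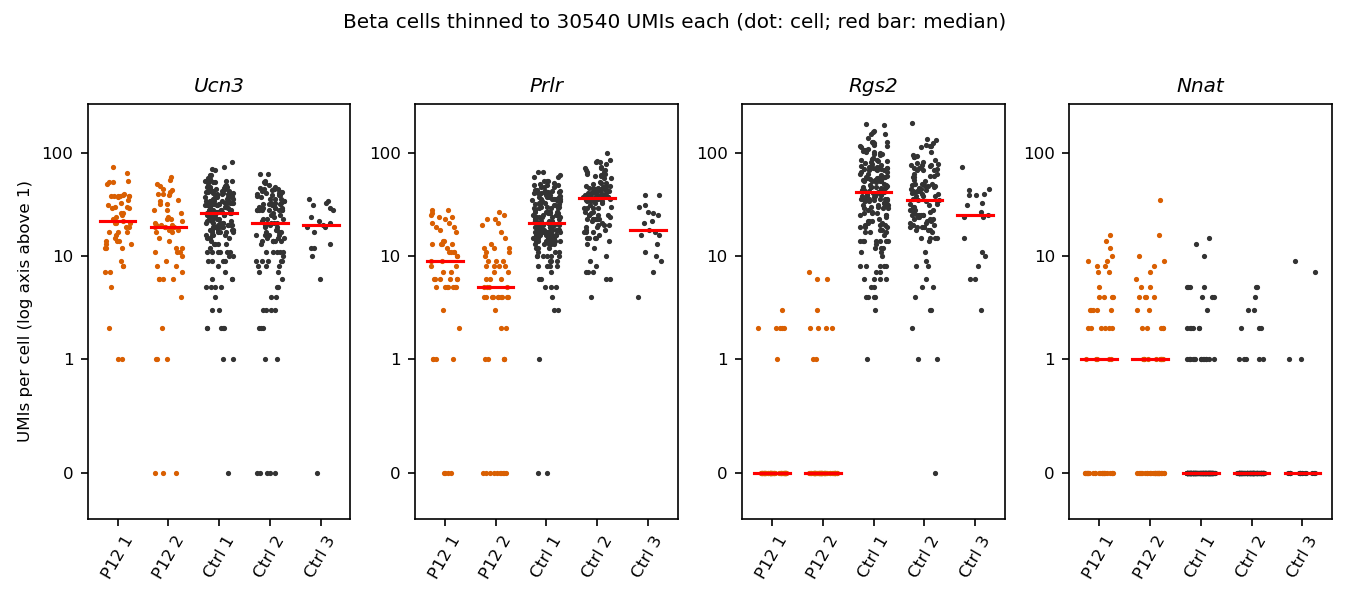
UMIs per beta cell (y axis, log scale above 1) of Ucn3, Prlr, Rgs2 and Nnat after thinning each cell to 30540 UMIs; dots are cells, red bars medians, orange P12 and black Control (Ctrl) libraries. Ucn3 medians lie at 19 to 26 in all 5 libraries, whereas Rgs2 medians are 0 at P12 and 25 to 41.5 in adults and Prlr medians are 9 and 5 against 21, 36.5 and 18.

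Prlr was lower per cell in both P12 libraries. Its median per thinned cell was 9 and 5 UMIs at P12 and 21, 36.5 and 18 in adults, while 87.9% ± 6.84 of P12 and 99.6% ± 0.628 of adult cells had a UMI (unthinned 90.7% and 99.2%, exact permutation p = 0.1). Ucn3 had a UMI in 97.5% ± 3.60 of P12 and 96.7% ± 2.47 of adult cells (unthinned 97.7% and 96.6%, exact permutation p = 0.7). In adult glucagon cells, which should lack both genes, 6 of 42 cells had a Prlr UMI and 6 of 42 a Ucn3 UMI. The median depth of these adult cells was 46144 UMIs before thinning. Among P12 glucagon cells, 0 of 8 had a Prlr UMI and 3 of 8 a Ucn3 UMI.

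Genes of several secretory granule proteins were lower at P12, and those of the convertases were not called. In the list of insulin granule and hormone processing, 5 of 24 tested members were lower (Resp18, Scg3, Scg2, Cpe and Pam), with a median of -0.27. Resp18, a granule protein of neuroendocrine cells, stood at 1082 and 1337 against 2754, 2437 and 3184 (-1.20 ± 0.21, adjusted p 0.00843). Scg2, secretogranin II, which is stored and cut in granules, stood at 4398 and 5195 against 8811, 8942 and 9297 (-0.90 ± 0.18, adjusted p 0.0188). Scg3, which binds chromogranin in the granule membrane, stood at 1184 and 1054 against 2188, 2205 and 1970. For these 3 genes the groups did not overlap. Cpe, the carboxypeptidase that trims the cut ends of insulin, stood at 1531 and 1422 against 2557, 2606 and 3106 (-0.90 ± 0.19, adjusted p 0.028). Pam, which amidates peptides, stood at 240 and 255 against 435, 481 and 425 (-0.85 ± 0.19, adjusted p 0.0327).

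The convertases Pcsk1 and Pcsk2, which cut proinsulin, stood at 385 and 277 against 370, 365 and 314, and at 4941 and 5337 against 5438, 5810 and 6575. Their fold changes were -0.08 ± 0.20 and -0.20 ± 0.18, and that of chromogranin B (Chgb) was -0.08 ± 0.20. The number of lower granule genes depended on single libraries: 0 without P12 1, 2 without P12 2, 4, 1 and 6 without Control 1, 2 and 3, and 0 under the stricter cell rule.

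**Figure D3:**
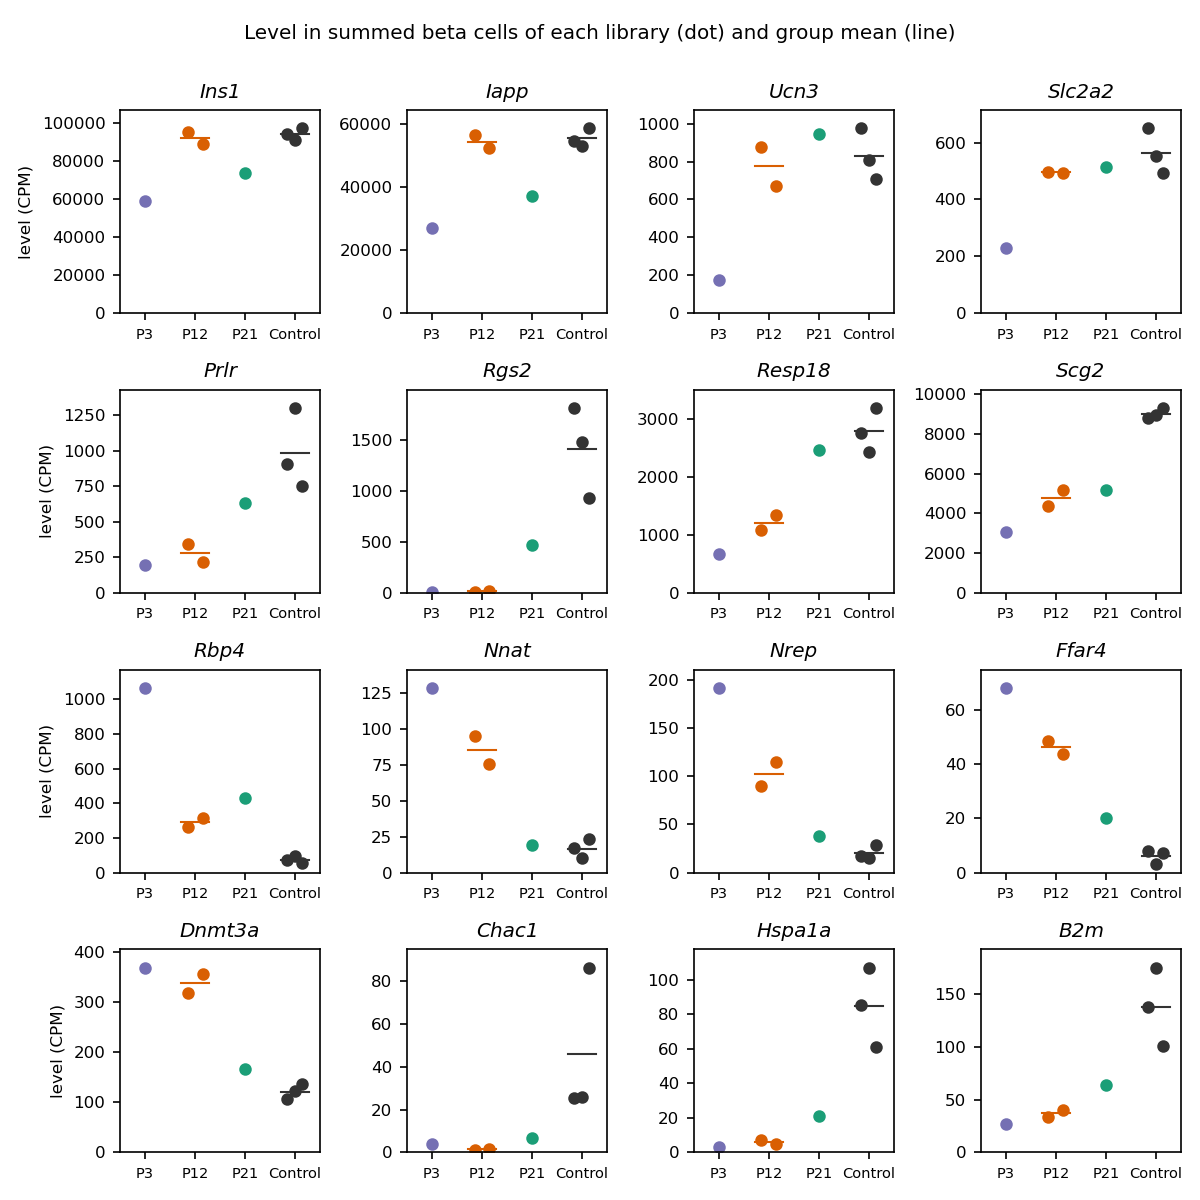
Level of 16 genes in the summed beta cells of each library (dots, CPM, y axis from 0) for P3, P12, P21 and Control, with a line at the mean of P12 and Control. Ins1, Iapp, Ucn3 and Slc2a2 overlap between P12 and Control, whereas the 12 genes in the lower 3 rows, picked from called genes, do not. Of all genes tested, both P12 libraries lie above all Control libraries for 16.9% and below them for 17.6%.

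Several receptors and local peptides of the islet differed. Among receptors and hormone signalling genes 3 of 20 tested were lower (15%, against 2.64% over all genes): Prlr, Sstr3 and Oxtr. Sstr3, a somatostatin receptor, stood at 35.5 and 45.6 against 90.9, 75 and 83 (-1.02 ± 0.24, adjusted p 0.0418). Oxtr, the oxytocin receptor, had 0 UMIs at P12 and 112 over the adult libraries, which is at least 12.1-fold lower against a floor of 3 counts over the group (adjusted p 0.0245). Without P12 1, P12 2, Control 1, Control 2 and Control 3 the number of lower receptors was 1, 0, 2, 1 and 2. Glp1r, the receptor of the incretin GLP-1, stood at 14.9 and 16.9 against 8.39, 3.55 and 14.5 (1.00 ± 0.53, adjusted p 0.402).

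Pdyn, which encodes the opioid precursor prodynorphin (chr2:129686565-129699844, minus strand), had no UMI in either P12 library and 41.1, 176 and 283 CPM in adults. With 2160 UMIs over the adult libraries it was at least 234-fold lower at P12 (adjusted p 0.000929). The P3 library had 0.0925 and the P21 library 19.9. A Pdyn UMI was present in 0% of thinned P12 cells and in 42.6% ± 19.4 of thinned adult cells (unthinned 0% and 46.5%, exact permutation p = 0.2 with the tie between both P12 libraries). In a list of islet peptides and receptors put together after values had been seen, 4 of 11 tested members were lower, with a median of -1.50. Besides Pdyn and Oxtr these were Egf, a growth factor (2.64 and 2.61 against 9.33, 20.9 and 30.6), and Gal, the neuropeptide galanin. Gal had 2 UMIs at P12 and 159 in adults, a ratio of 25.8 with a 95% counting interval of 7.04 to 215.

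Ffar4, a receptor for long-chain fatty acids, went the other way. It stood at 48.4 and 43.8 at P12 and at 7.92, 3.14 and 7.25 in adults (chr19:38097071-38114263, plus strand), 7.79-fold higher at P12 (2.96 ± 0.40, adjusted p 0.00189). P3 had 68.0 and P21 20.2, so its level was lower at each later age. Npy, a neuropeptide of immature beta cells, was uneven: 127 and 13 at P12 and 20.2, 1.78 and 0 in adults (2.95 ± 0.92, adjusted p 0.125), with 46.7% and 46.0% of the P12 UMIs of each library in 1 cell. Npy passed without Control 1 (5.60, adjusted p 0.00856) and with no filter on low counts (adjusted p 4.86e-16). Pyy, peptide YY, stood at 2174 and 2684 against 478, 718 and 2440. Its change of 1.00 ± 0.49 did not pass the test (adjusted p 0.351), but without Control 3, the library of 21 cells, it was 2.04 with an adjusted p of 0.000547, and under the stricter cell rule 2.28 (3.07e-06).

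Some genes of young and progenitor endocrine cells were above the adult level. Of 22 tested members 5 were higher at P12 (Nrep, Nnat, Rbp4 and Dcx among them), with a median of 0.96, and both P12 libraries lay above all Control libraries for 10, against 16.9% of all genes. Nnat, neuronatin, an imprinted membrane protein (chr2:157560078-157562522, plus strand), stood at 95.3 and 75.6 against 17, 10.1 and 23.4 (2.44 ± 0.33, adjusted p 0.00183). Nrep, a neuronal regeneration protein, stood at 89.7 and 115 against 16.9, 15.4 and 28.2, 5.44-fold higher (adjusted p 0.000704). The groups overlapped for neither gene, and P3 was above P12 for both (129 and 192) while P21 had 19.6 and 38.4.

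Rbp4, a retinol carrier also high in delta cells, stood at 265 and 314 against 70.4, 95.1 and 53.2 (1.97 ± 0.23, adjusted p 0.000704). Delta-cell markers without Sst summed to 255 and 332 CPM, unscaled, at P12 and to 73.8, 94.4 and 48.1 in adults. Nearly all of this sum was Rbp4 itself (254 and 325 against 67.0, 92.0 and 48.1). Hhex, a defining factor of delta cells, had at most 7.82 CPM, unscaled, in any library. The part of delta-cell RNA in the Rbp4 result was not tested. Dcx, doublecortin, a microtubule protein of young neurons, stood at 30.5 and 24.2 against 8.94, 9.70 and 7.25 (1.64 ± 0.36, adjusted p 0.029). The number of higher members of this list was 4 to 6 when any 1 library was left out. Igf2bp2, an RNA-binding protein, stood at 17.9 and 25.3 against 7.68, 0.820 and 0 and did not pass (adjusted p 0.1001). Dlk1, a Notch-family ligand of fetal cells, had too few UMIs to be tested.

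Nnat and Nrep were seen in a larger share of cells in both P12 libraries than in any Control library. Nnat had a UMI in 53.6% ± 3.90 of thinned P12 cells and 16.4% ± 5.18 of thinned adult cells (unthinned 65.4% and 24.2%), and Nrep in 79.8% ± 0.240 and 26.1% ± 9.45 (unthinned 88.2% and 36.7%). Each exact permutation p was 0.1. In thinned glucagon cells, Nnat had a UMI in 0 of 8 P12 and 0 of 42 adult cells, and Nrep in 5 of 8 (62.5%) and 3 of 42 (7.14%).

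Among beta-cell transcription factors, 2 of 26 tested members were higher (7.69%, against 2.64% over all genes), Pdx1 among them, with a median of 0.30. Pdx1, the factor that specifies the pancreas and drives insulin transcription, stood at 302 in both P12 libraries and at 187, 182 and 152 in adults, 1.74-fold higher (0.80 ± 0.19, adjusted p 0.0404). Nkx6-1, which keeps beta cells from alpha genes, stood at 231 and 187 against 206, 301 and 266 (-0.29 ± 0.22), and Neurod1, which activates the insulin gene, at 455 and 464 against 292, 377 and 314 (0.49 ± 0.19, adjusted p 0.225). Pdx1 lost its call when any 1 of the 5 libraries was left out.

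Some regulators of chromatin were higher at P12. In a list of DNA methylation and chromatin regulators put together after values had been seen, 9 of 29 tested members were higher, with a median of 0.70. Dnmt3a, which sets new DNA methylation and is needed for postnatal beta-cell maturation, stood at 319 and 357 against 107, 122 and 136 (1.49 ± 0.20, adjusted p 0.00162). Tet1, which oxidises methylated cytosine, stood at 55.4 and 30.8 against 9.41, 8.88 and 5.64 (2.36 ± 0.37, adjusted p 0.00389). The other 7 were Tdg, which excises the oxidised base, the histone H3 enzymes Kdm6b and Dot1l, Dpy30 of the H3 lysine 4 complexes, the histone variant gene H3f3b, the histone chaperone Nasp, and Hmgb3. Their fold changes ran from 0.78 (Dpy30) to 2.57 (Hmgb3). Dnmt1, the maintenance methyltransferase, did not pass (0.25 ± 0.48). Without P12 1, P12 2, Control 1, Control 2 and Control 3 there were 1, 2, 7, 3 and 8 higher members, with 0 under the stricter cell rule and 1 in a fit of all 17 libraries.

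Cell division differed between the P12 libraries. Of 35 tested division genes 1 was called by edgeR, Tubb5, a beta-tubulin (217 and 218 against 133, 86.1 and 75.7; 1.14 ± 0.24, adjusted p 0.0233), with 7 at an unadjusted p under 0.05 and 3 by DESeq2, all higher. The 1 call was 2.86% of the list, against 2.64% over all genes. The list's median was 1.12, above that of all genes. Mki67, a marker of cycling cells, stood at 4.69 and 42 at P12 and at 13.3, 4.65 and 0 in adults (1.73 ± 0.82, adjusted p 0.333, and 0.00605 with no filter on low counts). Top2a, a topoisomerase of dividing cells, stood at 2.34 and 83.7 against 26.5, 5.47 and 0. By level, both genes were high in P12 2 and low in P12 1, and the range of the adults covered P12 1. In thinned cells, Mki67 had a UMI in 3 of 55 and 4 of 59 P12 cells and in 6 of 184, 4 of 120 and 0 of 19 adult cells. Top2a had one in 3 and 9 of these P12 cells and in 4, 2 and 0 adult cells. By share, both P12 libraries lay above every Control library (exact permutation p = 0.1 for each gene). For Mki67 that permutation p was 0.2 in unthinned cells and 0.6 in cells thinned to 45539 UMIs.

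Few cells carried most of this signal. Cells with UMIs of at least 5 of 18 G2 and M phase genes at equal depth numbered 0 of 55 and 2 of 59 at P12, and 2 of 184, 2 of 120 and 0 of 19 in adults. The count of 0 in P12 1 allows a share of up to 5.45% for counting error. The 2 cells of P12 2 held 95.8% of its UMIs of these genes. Without Control 1, the adult library with the most such RNA, 8 division genes were called. Among cell cycle regulators, Cdk4, a kinase of the G1 phase that beta-cell growth depends on, stood at 258 and 184 against 139, 115 and 110 (0.86 ± 0.21, adjusted p 0.0488). Its partners Ccnd1 and Ccnd2 had changes of 0.07 ± 0.25 and -0.28 ± 0.18. Mycn, a transcription factor of the MYC family, had 42 UMIs at P12 and 3 in adults (ratio 43.1, counting interval 13.8 to 217), and 85.0% and 54.5% of the P12 UMIs of each library came from 1 cell.

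Some genes of the ATF4 response, by which cells answer amino acid shortage and protein stress, were lower at P12. Of 21 tested members 7 were lower, with a median of -1.68: Nupr1, Chac1, Eif4ebp1, Phgdh, Mthfd2, Atf5 and Atf4. ATF4 binds a joint C/EBP and ATF element whose core can be written TGATGNAA. The 250 bases before the start of 2 members are shown because they hold this core, in capitals (here on the other strand, as its reverse complement). They are RefSeq windows on GRCm38.p6, 5′ to 3′ in the direction of the gene, at chr2:119350992-119351241 (plus strand) for Chac1 and chr7:126625471-126625720 (minus strand) for Nupr1.
Chac1: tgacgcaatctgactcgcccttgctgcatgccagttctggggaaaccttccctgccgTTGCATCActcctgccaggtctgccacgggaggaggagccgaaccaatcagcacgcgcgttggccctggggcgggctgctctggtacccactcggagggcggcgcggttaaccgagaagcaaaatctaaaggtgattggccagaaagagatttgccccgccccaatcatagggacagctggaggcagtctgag
Nupr1: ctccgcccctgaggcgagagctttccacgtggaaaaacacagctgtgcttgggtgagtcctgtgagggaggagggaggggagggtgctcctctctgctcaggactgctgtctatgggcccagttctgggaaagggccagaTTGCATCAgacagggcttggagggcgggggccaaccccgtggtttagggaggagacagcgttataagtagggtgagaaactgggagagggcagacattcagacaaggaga
The match begins at position -193 from the start in Chac1 and at -110 in Nupr1. On either strand the core occurs in 1134 of 32851 such windows (3.45%), and in 2 of the 6 called members with a window; Atf4, Atf5, Mthfd2 and Phgdh had no match in theirs.

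Chac1, an enzyme that degrades glutathione, stood at 1.17 and 1.56 at P12 and at 25.2, 25.8 and 86.2 in adults. It was 31.0-fold lower (-4.95 ± 0.71, adjusted p 0.00256), with P3 at 3.88 and P21 at 6.67. Nupr1, a small stress-induced nuclear protein, stood at 1.76 and 7.30 against 106, 114 and 567 (-5.79 ± 0.85, adjusted p 0.00301), and 49.0% of its UMIs in Control 3 came from 1 cell. Atf5, a factor of the same family, stood at 12.9 and 17.7 against 106, 55.1 and 111 (-2.54 ± 0.35, adjusted p 0.00213). For all 3 the lowest adult library lay above both P12 libraries.

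Enzymes that make serine and one-carbon units were among them. Phgdh, the first enzyme of serine synthesis, stood at 4.69 and 7.82 against 37.2, 21.7 and 75.7 (-2.77 ± 0.53, adjusted p 0.0166). Mthfd2, of mitochondrial folate metabolism, stood at 19.3 and 13.8 against 74.7, 60.8 and 168 (-2.57 ± 0.43, adjusted p 0.00683). Atf4 itself stood at 214 and 178 against 535, 399 and 297 (-1.06 ± 0.24, adjusted p 0.0367). Asns, asparagine synthetase, stood at 83.2 and 84.2 against 168, 123 and 251 (adjusted p 0.0593). Lower members numbered 0 without P12 1, 3 without P12 2, 6, 7 and 7 without Control 1, 2 and 3, and 5 under the stricter cell rule.

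The unfolded protein response had 1 of 26 members called by edgeR (3.85%, against 2.64% over all genes), Ero1lb, with a median of -0.21. At an unadjusted p under 0.05, 5 members were lower and 0 higher, and DESeq2 also called 5 lower. Fold changes were negative for 19 of the 26 members, and 0 were called under the stricter cell rule. Hspa5, the main chaperone of the endoplasmic reticulum, stood at 2621 and 1597 against 1399, 1695 and 1893 (0.35 ± 0.23), so the groups overlapped.

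**Figure D4:**
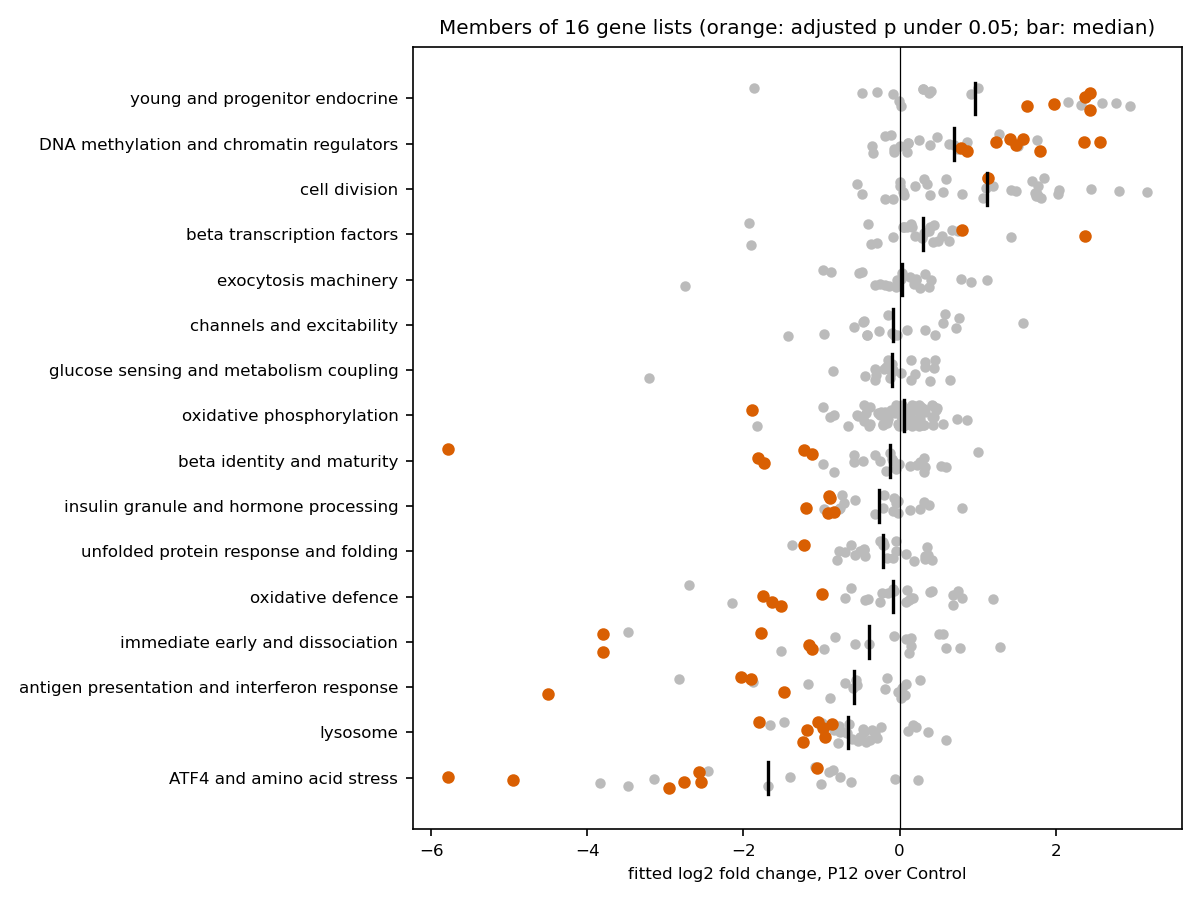
Fitted log2 fold change of P12 over Control for the tested members of 16 gene lists (x axis), 1 dot per gene, orange where the adjusted p was under 0.05, with a black bar at each list's median. The ATF4 list has its median at -1.68 and 7 called genes, all lower, and the young and progenitor list its median at 0.96 and 5 called genes, all higher.

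Of 21 tested genes of a list of immediate early and dissociation genes, 5 were lower at P12, all of them chaperones or their partners: Hspa1a, Hspa1b, Dnajb1, Hsph1 and Hspa8, with a list median of -0.39. Hspa1a, an inducible HSP70, stood at 7.33 and 4.95 against 85.4, 107 and 61.2, 13.9-fold lower (-3.80 ± 0.35, adjusted p 0.000125). Reads of Hspa1a and its near-identical copy Hspa1b may be split between them, and their sum stood at 9.09 and 5.996 against 94.5, 128 and 93.5. Dnajb1, an HSP40 partner, stood at 30.5 and 20.1 against 108, 74.6 and 74.9 (-1.77 ± 0.29, adjusted p 0.00548), and the constitutive Hspa8 at 491 and 408 against 1152, 749 and 1049 (-1.12 ± 0.23, adjusted p 0.021).

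No immediate early gene of the list was called by edgeR. Of the whole list, 2 members were higher and 6 lower by DESeq2. At an unadjusted p under 0.05 by edgeR, 3 were higher and 8 lower. Fos stood at 437 and 390 against 727, 367 and 210 (-0.07 ± 0.36), and Nr4a1 at 30.2 and 22.4 against 11.4, 10.5 and 10.5 (1.29 ± 0.35, adjusted p 0.0752). The number of lower members was 2 and 1 without P12 1 and P12 2, 4, 3 and 6 without Control 1, 2 and 3, and 1 under the stricter cell rule.

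Antigen presentation and interferon genes had 4 of 20 tested members lower, with a median of -0.58. B2m, the light chain of MHC class I, stood at 34.0 and 39.9 against 138, 175 and 101, 3.74-fold lower (-1.90 ± 0.27, adjusted p 0.00216). P3 had 26.6 and P21 64.1. Its heavy chains H2-K1 and H2-D1 had changes of -0.03 ± 0.19 and 0.03 ± 0.22. The other lower members were Ly6e, an interferon-induced surface protein (46.3 and 38.8 against 160, 146 and 223), Ifi27 (27.0 and 18.2 against 68.1, 54.3 and 67.7) and Ifitm3, with 2 UMIs at P12 and 168 in adults (ratio 27.3, counting interval 7.44 to 227). Lower members numbered 1, 2, 3, 3 and 4 without P12 1, P12 2, Control 1, Control 2 and Control 3, and 0 under the stricter cell rule.

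Genes of oxidative defence had 4 of 27 tested members lower (14.8%, against 2.64% over all genes), with a median of -0.08. The metallothioneins Mt1 and Mt2, which bind zinc and copper, stood at 453 and 600 against 2250, 1214 and 1489, and at 95.3 and 217 against 649, 407 and 290. Their changes were -1.64 ± 0.27 and -1.52 ± 0.36 (adjusted p 0.00572 and 0.0444). Gstm1, a glutathione transferase, stood at 40.7 and 18.2 against 85.8, 100 and 114, and Gpx3, a secreted glutathione peroxidase, at 133 and 137 against 295, 249 and 267. Without P12 1, P12 2 and Control 2 the lower members numbered 1, 2 and 2.

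In a list of lysosome genes put together after values had been seen, 7 of 36 tested members were lower, with a median of -0.66. That is 19.4%, against 2.64% over all genes. Ctns, the cystine exporter, stood at 7.91 and 6.78 against 23, 25.2 and 29.8 (-1.80 ± 0.38, adjusted p 0.0245), and Grn, progranulin, at 32.5 and 39.4 against 99.1, 74.1 and 81.4 (-1.23 ± 0.25, adjusted p 0.0202). Dpp7, Creg1, Npc2, Asah1 and Hexa had changes between -1.18 (Dpp7) and -0.87 (Hexa). The lower lysosome genes numbered 0 without either P12 library, 3, 2 and 6 without Control 1, 2 and 3, and 0 under the stricter cell rule.

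Metabolic lists held few calls. In fatty acid oxidation and ketone genes 0 of 28 were called by edgeR (5 at an unadjusted p under 0.05, 1 by DESeq2), and Cpt1a, the gate of fatty acid entry into mitochondria, stood at 26.4 and 20.3 against 23.6, 22.1 and 30.6. Cox6a2, the striated-muscle form of a cytochrome oxidase subunit, stood at 266 and 126 against 341, 324 and 385 (-0.83 ± 0.27, adjusted p 0.144), and passed with DESeq2 (adjusted p 0.0407), with no filter (0.00709) and without P12 1 (-1.47, adjusted p 0.0434). Among genes that mature beta cells keep low, Oat, ornithine aminotransferase, was the 1 called of 4 tested, at 31.1 and 24.5 against 6.66, 1.23 and 4.03 (2.77 ± 0.55, adjusted p 0.0197), and P3 had 85.3. Ldha and Slc16a1 of the same group had too few UMIs to be tested.

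Ldhb, a lactate dehydrogenase, stood at 21.1 and 8.60 against 53.5, 45.2 and 60.4 (-1.83 ± 0.37, adjusted p 0.0223). Insig1, which holds back sterol synthesis, stood at 44.0 and 38.1 against 109, 82.8 and 69.3 (-1.09 ± 0.25, adjusted p 0.0393). Of 18 clock genes, the repressor Cry2 was lower (29.6 and 37.5 against 109, 97.2 and 102; -1.60 ± 0.24) and Per3 higher (18.8 and 60.2 against 12.5, 7.24 and 5.64; 2.14 ± 0.48). The labels give no time of day for collection.

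Other large changes fell outside these lists. Arhgap36, an inhibitor of protein kinase A, stood at 68.9 and 63.4 against 4.94, 2.46 and 19.3 (3.34 ± 0.58, adjusted p 0.00843), and Slc6a20a, a proline transporter, at 14.7 and 11.7 against 0.470, 0 and 1.61. Jph4, a junction protein, stood at 18.8 and 37.3 against 3.37, 3.69 and 3.22 (3.02 ± 0.44, adjusted p 0.00277). No overlap between groups was required when these 3 genes were chosen. P3, which had no part in that choice, was above all Control libraries for them, at 54.7, 9.43 and 23.7. Tmem59l, a Golgi membrane protein, had 2 UMIs at P12 and 965 in adults (ratio 157, counting interval 43.3 to 1297). Degs2, a sphingolipid hydroxylase, had 0 and 213, at least 23.1-fold lower.

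Genes known from other pancreatic cells also differed, and adult cells held more acinar RNA. Of 27 tested acinar genes 15 were lower at P12 and 1 higher, with a median of -2.90. Pnlip, pancreatic lipase, stood at 7.03 and 0.261 at P12 and at 534, 1445 and 3080 in adults (-8.90 ± 0.96, adjusted p 0.000373). Ctrb1, chymotrypsinogen, stood at 310 and 949 against 1448, 2984 and 8931 (-2.83 ± 0.66, adjusted p 0.04). Reg2 and Reg3b, secreted lectins of the regenerating family, had 0 UMIs at P12 and 12016 and 3612 in adults, at least 1302-fold and 391-fold lower. P3 had 25.4 CPM of Reg2 and P21 184. Reg1 of the same family was not called (225 and 606 against 444, 772 and 1678; -1.21 ± 0.49, adjusted p 0.247), and the 6 family members summed to 226 and 611 against 851, 2095 and 3989. The trypsinogen copies differed in direction: Try4 and Try5 were lower (-5.35 and -5.04) and Prss1 higher (16.7 and 39.1 against 0.941, 0.547 and 0), and reads can be split among these near-identical genes. Their sum stood at 81.8 and 178 against 1000, 2542 and 7156.

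Acinar RNA was lower at P12 like the other genes given as lower, and its part in those results was not tested. Under the stricter rule 15 acinar genes were lower. Without P12 1, P12 2, Control 1, Control 2 and Control 3 they numbered 5, 8, 19, 10 and 15.

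Ttr, transthyretin, and Gc, the vitamin D binding protein, which are high in alpha cells, were lower at P12. Ttr stood at 1070 and 888 against 3513, 3142 and 4507 (-1.92 ± 0.22, adjusted p 0.000644), and Gc at 2.05 and 5.47 against 79.6, 67.7 and 151 (-4.66 ± 0.49, adjusted p 0.000315). Alpha-cell markers without Gcg summed to 1134 and 1031 CPM, unscaled, at P12 and to 3451, 3124 and 4227 in adults. Nearly all of this sum was Ttr itself (1027 and 918 against 3341, 3039 and 4074). The defining alpha-cell factors Irx1 and Irx2 were at or below 2.18 CPM, unscaled, in every library. Gcg, which the rule used, stood at 290 and 366 against 1193, 1224 and 5743. C1qa, a complement gene of macrophages, stood at 26.4 and 14.9 against 108, 72.0 and 75.7 (-2.06 ± 0.31, adjusted p 0.00353), while Ptprc, the pan-leukocyte gene, had at most 0.844 CPM, unscaled. Hbb-bs and Hba-a2, globins of red cells, stood at 14.9 and 24.8 and at 12.9 and 10.2 at P12 and at most 1.25 and 0.806 in adults.

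Ribosomal protein genes had 4 of 85 tested members lower (Rps14, Rps28, Rpl26 and Rps29) and 1 higher, with a median of -0.31 (2, 1, 2, 1 and 5 lower without P12 1, P12 2, Control 1, Control 2 and Control 3). Called members were 5.88% of those tested, against 2.64% over all genes. Both P12 libraries lay below all Control libraries for 46 members and above them for 3, against 17.6% and 16.9% of all genes. By DESeq2 14 members were lower and 2 higher, and under the stricter cell rule 0 were lower and 1 higher. Rps14 stood at 414 and 361 against 1298, 994 and 1035 (-1.51 ± 0.21, adjusted p 0.0019). The higher one, Rps3a3, is annotated as a processed pseudogene and stood at 262 and 259 at P12 and at 0.157, 0 and 0 in adults, with 0.277 at P3 and 0.417 at P21. Its parent Rps3a1 stood at 496 and 432 at P12 and at 967, 764 and 715 in adults, and the sum of both at 758 and 691 against 968, 764 and 715. The call of Rps3a3 is therefore uncertain as a change of this copy. Whether the P12 reads were aligned and counted with the same annotation and settings as the others is not given in the sources used here, and its part in genes at 0 UMIs at P12 or seen almost only there was not tested. Tmsb15b1, with 0 UMIs at P12 and 645 in adults, also has near copies: with Tmsb15b2 and Tmsb15l it summed to 3.81 and 2.61 against 50.9, 38.0 and 37.9.

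The younger and older single libraries gave the called genes an order without entering the test. P3 lay above P21 for 99 of the 117 genes higher at P12 (84.6%), against 49.4% of all 11317 genes. P3 lay below P21 for 150 of the 182 lower genes (82.4%), against 50.6% of all genes. Each of these ages has 1 library, so the order has no replicate check.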

How the data were processed

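Single RFP-positive pancreatic cells were profiled by mSTRT-seq in P12 (2) and Control (3) libraries. The authors deposited UMI counts per gene and cell, made, per the submitters' processing notes, with UMI-tools 0.5.0, TopHat2 2.1.0, SAMtools 1.3.1 and featureCounts 1.5.3 on mm10. Which step each tool served, the annotation and the strand setting are not given in the sources used here. The authors also deposited a signal table, which held UMIs per 100000 of each cell after leaving out 8 genes, mostly islet hormones (matched by the counts to within 0.005). The signal chose the cells and the counts were tested. The deposited sample fields of the cell tables mapped all 2999 cells to libraries. No doublet caller was run, since cells were picked singly by hand per the labels' protocols; no cell had counts identical to another.

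Counts were summed per library and fitted with edgeR 4.0.16 (quasi-likelihood F test, TMM, filterByExpr; limma 3.58.1, R 4.3.3), adjusted by Benjamini-Hochberg over 11317 genes at a threshold of 0.05, without the 5 genes of the cell rule. Per-cell shares used cells thinned to 30540 UMIs (55, 59, 184, 120 and 19 cells in P12 1, P12 2 and Control 1 to 3) with exact permutation tests in SciPy 1.17.1. Intervals at 95% and the floor of 3 counts cover counting error only. Gene positions and types came from GENCODE vM21 (39950 genes matched by identifier), and promoter windows from RefSeq. The edgeR fit was checked on simulated data. Alternatives were DESeq2 1.42.0, other normalization and filters, each library left out, a replicate block, all 17 libraries, hormones left out, thinned cells and stricter cells.

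Members and lists were chosen with earlier results of these data known. Genes named were the 12 with the largest fold change in each direction among called genes with no overlap between groups, leaving out unnamed models, pseudogenes and genes of non-endocrine lists, up to 6 called members per list, and a set of beta-cell genes whatever their result. Outside this rule, Atf4, Hexa, H3f3b, Dpy30, Nasp, Dnmt1, Asns, Fos, Nr4a1, Hspa5, H2-K1, H2-D1, Igf2bp2, Top2a, Ctrb1, Reg1, Rps3a1, Tmsb15b2 and Tmsb15l were added after their values were seen. The replicate numbers, given under a label called batch, were shared by only 2 pairs, and the P12 and Control differences between numbers 1 and 2 correlated at -0.00449 (Pearson) and 0.104 (Spearman) across genes, so the numbers were not taken to pair libraries. Some genes covered by the rule are not reported here.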

Additional observations from a re-analysis of the deposited data

How the results depend on the processing

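The 299 calls (117 higher, 182 lower) became 564 (214 and 350) with DESeq2, 699 (279 and 420) with no filter on low counts, 110 (35 and 75) with stricter cells and 74 (17 and 57) in a fit of all 17 libraries. Leaving out 1 library gave 70 to 341 calls, 25 to 123 higher and 45 to 218 lower. Other fits were chosen after seeing the data: stricter cells in libraries with 9 or more gave 38 calls (9 and 29), and all 17 libraries with a replicate block 49 (8 and 41). With the replicate block in the 5 libraries, 1124 genes were called (507 and 617), although the numbers were not taken to pair the libraries. The cause of these changes was not tested. The remaining alternatives (another normalization, a mean of at least 20 CPM, hormone genes left out, cells thinned) stayed within 1.5 times. None of the 97 called genes named changed direction under any of the 14 alternatives planned.

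Some fold changes that were not called changed sign (log2 scale). Over fits without 1 library, Ins1 ranged from -0.0795 to 0.00916, Iapp from -0.0802 to 0.0290, Ucn3 from -0.296 to 0.0677, Pcsk1 from -0.335 to 0.128, Chgb from -0.188 to 0.0614, Mki67 from -0.539 to 2.85, Cpt1a from -0.291 to 0.0715 and Ccnd1 from -0.173 to 0.272. With the replicate block, Ins1 was 0.00991, Iapp 0.0316, Cpt1a 0.0419 and Ccnd1 -0.112, and with the block and all 17 libraries Cpt1a was 0.0168 and Ccnd1 -0.166. With stricter cells, Ins1 was 0.0374, Iapp 0.207, Ucn3 0.183, G6pc2 0.263, Pcsk1 0.174, Pcsk2 0.0913, Chgb 0.162, Ccnd1 -0.0339 and Ccnd2 0.0961. In libraries with 9 or more stricter cells, Ins1 was 0.107, Iapp 0.197, Pcsk1 0.0652, Cpt1a 0.140 and Ccnd1 -0.101, and with thinned cells Cpt1a was 0.00420. Depth limits genes of few UMIs, and Control 3 rests on 21 cells.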

Other observations

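Among named and unnamed gene models, 15 stood apart at P12 from every other age measured, by at least 4-fold from P3, P21 and all Control libraries after 1 CPM was added. They were chosen on these values and have no test here. Any difference in alignment or counting between P12 and the other libraries, which the sources used here do not give, was not tested. Lower were Reg2, Reg3a, Reg3b, Pla2g1b, Gp2, Try4, Tmsb15b1 and Rab6b, and higher were the globins Hbb-bs and Hba-a2, the pseudogene Rps3a3 and the models Gm10800, Gm10801, Gm13225 and Gm14085. Rab6b, a Golgi GTPase, stood at 0.293 and 0.261 CPM at P12, 9.62 at P3, 25.6 at P21 and 24.2, 31.4 and 29.0 in adults. Gm14085 stood at 127 and 81.3 at P12, 11.5 at P3, 4.03 at P21 and 3.53, 2.46 and 5.64 in adults. Gm10800 stood at 277 and 255 at P12, 0.370 at P3 and 0.139 at P21, and at 42.2, 5.06 and 47.5 in adults.

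Cebpd, a stress-responsive factor outside every list, was one of the 19 genes called under all 14 alternatives planned. It stood at 3.81 and 3.91 at P12 and at 63.7, 71.6 and 23.4 in adults, 13.9-fold lower (edgeR adjusted p 0.00121), with 16.3 at P3 and 15.7 at P21.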
